A study of Mus musculus with 8 samples.

Results

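To compare the T cell receptors of thymic and splenic CD8+ T cells within an animal, the receptor tables of mouse-155A and mouse-155C were used, the 2 of 7 animals whose names occur on both a thymus table and a spleen table. A cell was counted when its barcode was not marked as a multiplet by the authors and carried the CDR3 amino acid sequence of both a TRA (alpha) and a TRB (beta) chain. This left 8031 of the 66914 cells that meet the same criteria in the 14 tables of the series, with 2085 cells from the mouse-155A thymus, 3323 from the mouse-155A spleen, 1241 from the mouse-155C thymus and 1382 from the mouse-155C spleen. The CDR3 is the stretch of the receptor built at the join of the V, D and J gene segments, and it contacts the presented peptide.

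The cells were isolated from each organ with a kit for CD8a+ T cells. The series covers Pdcd1fl/fl mice and Pdcd1 cKO mice, of which the second lack PD-1 in CD8+ T cells through a Cre driven by the E8I element of Cd8a on a C57BL/6 background. According to the design text the spleen cells belong to the baseline arm without a tumor. The labels tie no table to a genotype, age or sex, so the animals are named by the tokens of their tables and no genotypes were compared. The study's supplement lists its baseline thymus and spleen comparison for both a control and a Pdcd1 cKO animal, without these tokens, so genotype and animal cannot be told apart here. The thymus tables of the 5 other animals, all of which also gave a tumor table, served only to show how far thymus values range between animals.

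Each tissue of each animal is represented by 1 table without replicates, so differences are given as sizes within each animal and no test between tissues was run. An exact permutation test that exchanges thymus and spleen within each of 2 animals cannot give a two-sided p below 0.5. Intervals in parentheses are exact (Clopper-Pearson) 95% intervals of a share and cover counting error only. Between 16.8% and 26.7% of the barcodes of a table carried both chains, and a counted cell had a median of 1 or 2 TRA transcripts and 2 TRB transcripts. The 5 other thymus tables were deeper, with both chains in 30.5% to 35.0% of barcodes and medians of 2 TRA and 3 TRB transcripts. What this difference in depth adds to the range of thymus values was not tested. No full cell barcode was shared between any of the 4 tables. The tables list receptor genes only, so the labelled cell type could be checked on the receptor alone. TRA and TRB were the only loci named in them, and no counted cell had the TRAV1-TRAJ33 chain of mucosal-associated invariant T cells. The check was not clean in the thymus, however. There 8.73% (mouse-155A) and 9.11% (mouse-155C) of counted cells had the TRAV11-TRAJ18 chain of invariant natural killer T cells. A J segment of the delta chain was found in 4.62% and 4.18% of distinct TRA-labelled chains. Both are described below, and whether these cells carry CD8 was not tested.

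The alpha chain is made by joining 1 of many TRAV segments to 1 of many TRAJ segments, and the beta chain by joining TRBV, TRBD and TRBJ. The delta chain locus lies inside the alpha locus, between the TRAV and the TRAJ segments. Delta rearranges first during thymic development, and the later joining of a TRAV to a TRAJ segment removes it from the chromosome. Some V segments, whose names carry both a TRAV and a DV number, can be joined to either. To count each rearrangement once, shares below are of distinct chains, meaning chains of 1 table that differ in V gene, J gene or CDR3 amino acid sequence, and cells with the invariant TRAV11-TRAJ18 chain were set apart. The tables gave 1891, 3260, 1095 and 1303 distinct TRB chains and 1752, 3038, 982 and 1239 distinct TRA chains in the order mouse-155A thymus, mouse-155A spleen, mouse-155C thymus and mouse-155C spleen.

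Among V and J segments, those that differed by over 1.5-fold in the same direction in both animals were TRAV families whose members are shared with the delta chain, and many of the chains behind them carried a delta J segment although the tables labelled them TRA and mostly named the J gene TRAJ22. The following junctions show this, since the finding rests on their last bases. For each table, the TRAV15 chain with a delta J and the most TRA transcripts is printed 5′ to 3′ from the first cysteine codon, with capitals for the 3′ run of bases equal to Trdj1.
mouse-155A thymus delta: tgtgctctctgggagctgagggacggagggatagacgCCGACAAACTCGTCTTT
mouse-155A spleen delta: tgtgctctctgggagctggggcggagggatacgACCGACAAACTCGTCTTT
mouse-155C thymus delta: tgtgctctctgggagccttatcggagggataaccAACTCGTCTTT
mouse-155C spleen delta: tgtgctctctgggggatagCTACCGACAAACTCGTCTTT

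A chain that does carry TRAJ22 is shown for contrast, with capitals for the run equal to Traj22, beside both germline segments on the plus strand of GRCm39. Trdj1 lies at chr14:54360595-54360645 and Traj22 at chr14:54434705-54434764. Capitals in Trdj1 mark the run of 10 bases that was searched in junctions.
mouse-155A thymus TRAJ22: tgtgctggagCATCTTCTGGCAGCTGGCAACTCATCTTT
Trdj1, GRCm39: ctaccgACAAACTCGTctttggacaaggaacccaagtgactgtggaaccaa
Traj22, GRCm39: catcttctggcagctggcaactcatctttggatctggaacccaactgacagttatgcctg
The delta junctions of the mouse-155A thymus and spleen also hold CGGAGGGATA, a run of 10 bases of the delta D segment Trdd2 (chr14:54359683-54359698), as does that of the mouse-155C thymus. The search for delta segments was chosen after the TRAV and TRAJ values had been seen.

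A delta J was scored where a TRA-labelled sequence held the last 24 bases of Trdj1 or Trdj2, or where its junction held the run of Trdj1 marked above. Of the distinct TRA chains, 81 of 1752 in the mouse-155A thymus carried one (4.62%, 3.69 to 5.71), against 7 of 3038 in the mouse-155A spleen (0.230%, 0.0927 to 0.474). In mouse-155C they were 41 of 982 in the thymus (4.18%, 3.01 to 5.62) and 2 of 1239 in the spleen (0.161%, 0.0196 to 0.582). The thymus share lay above the spleen share in both animals with intervals that did not overlap, and the thymus tables of the 5 other animals ran from 2.52% to 3.74%.

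**Figure D1:**
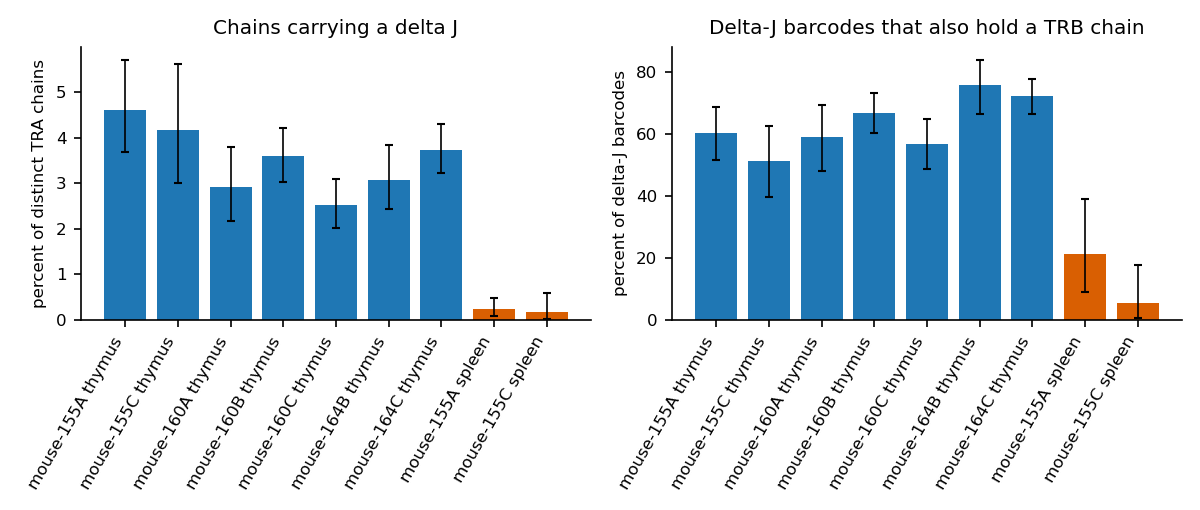
Left, percent of distinct TRA-labelled chains of counted cells that carried a delta J in each of the 7 thymus tables (blue) and both spleen tables (orange). Right, percent of non-multiplet barcodes with a delta-J chain that also held a TRB chain. Bars are shares and lines are exact 95% intervals. Thymus tables lie at 2.52% to 4.62% on the left, above both spleens at 0.230% and 0.161%.

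These chains differed from other TRA-labelled chains in what followed the junction. Among the sequences that reached the 24-base end of the delta J, 106 of 134, 23 of 32, 52 of 78 and 31 of 37, in the table order used above, ran on into the first bases of Trdc, the delta constant gene. TRAC, the alpha constant gene, was called for 1 sequence with a delta J in the mouse-155A spleen and for none in the 3 other tables, against 62.7% to 82.6% of the other TRA-labelled sequences. The mean identity to the named J gene was 84.2% to 85.7% for sequences with a delta J and 99.8% for the rest. None of the TRB-labelled sequences of the 4 tables held a delta J.

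The V genes of the delta-J chains were few. Of the 81 distinct chains in the mouse-155A thymus, 45 used TRAV15, 25 used TRAV21 and 9 used TRAV14, with 1 each from TRAV3 and TRAV4. The mouse-155C thymus had 22 with TRAV15, 14 with TRAV21, 3 with TRAV14 and 2 with TRAV16. In the spleens, TRAV15 accounted for 5 of 7 and for 2 of 2. The Trdd2 run shown in the printed junctions was found in 55 of the 81 chains, 5 of the 7, 21 of the 41 and 0 of the 2, and in at most 1 of the remaining distinct TRA chains of each of these 4 tables.

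Counted cells with a delta-J chain in the thymus also stood out on their beta chain. The median number of TRB transcripts was 7 in such cells of the mouse-155A thymus and 8 in those of the mouse-155C thymus, against 2 in the other counted cells of each table. At least 5 TRB transcripts were recorded in 64.2% and 80.5% of them, compared with 21.3% and 20.2% of the others. Their median number of TRA-labelled transcripts was 2 and 1, so the difference was on the beta side. In the spleens both medians were 1, over 7 and 2 cells. A second TRA chain was listed in 5 of the 81, 2 of the 7, 1 of the 41 and 0 of the 2 delta-J cells, while it was listed in 13.4% to 16.2% of all counted cells.

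The requirement for both chains affected the tissues differently. Among non-multiplet barcodes with a delta-J chain, a TRB chain was present in 81 of 134 in the mouse-155A thymus (60.4%, 51.6 to 68.8) but in 7 of 33 in its spleen (21.2%, 8.98 to 38.9). The corresponding values in mouse-155C were 41 of 80 (51.3%, 39.8 to 62.6) and 2 of 38 (5.26%, 0.644 to 17.7). Barcodes with another TRA chain held a TRB chain in 46.5% to 56.5% in all 4 tables. In both spleens, therefore, the delta-J barcodes mostly lacked a beta chain, which those of the thymus did not. Which cells the barcodes with a delta-J chain and no TRB chain came from was not tested.

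To determine which TRA segments differed, each family's share in the spleen was divided by its share in the thymus of the same animal, and a family was called where the ratio was past 1.5-fold the same way in both animals. Near-identical copies of the duplicated TRAV locus were summed by family. Among the 14 TRAV families with a mean share of at least 1%, TRAV15 and TRAV21 were called (14.3%), both lower in the spleen. TRAV21 was no longer called when all non-multiplet barcodes with a TRA chain were taken, paired or not, since its ratios were then 0.552 and 0.772. TRAV15 is the family of TRAV15-1-DV6-1 (chr14:53797089-53797704) and its copy TRAV15D-1-DV6D-1 (chr14:53100756-53101393), and TRAV21 consists of TRAV21-DV12 (chr14:54113441-54114209). Both families are thus of the kind that serves either chain. TRAV14, which was also found joined to a delta J, was not called, with ratios of 1.01 and 0.885.

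TRAV15 made up 3.08% (2.32 to 4.00) of distinct TRA chains in the mouse-155A thymus and 0.625% (0.377 to 0.975) in its spleen, a ratio of 0.203. In mouse-155C it made up 2.65% (1.74 to 3.86) and 0.646% (0.279 to 1.27), a ratio of 0.244. The intervals of thymus and spleen did not overlap in either animal, and both spleens lay below all 7 thymus tables, which ranged from 1.83% to 3.08%. TRAV21 made up 2.28% (1.64 to 3.1) and 1.32% (0.942 to 1.79) in mouse-155A and 2.24% (1.41 to 3.37) and 0.807% (0.388 to 1.48) in mouse-155C, with ratios of 0.577 and 0.360. Its intervals overlapped between the tissues in both animals, although both spleens were again below the thymus range of 2.05% to 2.41%.

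Most thymic chains of both families carried the delta J. This held for 45 of 54 TRAV15 chains and 25 of 40 TRAV21 chains in the mouse-155A thymus, and for 22 of 26 and 14 of 22 in the mouse-155C thymus. In the spleens it held for 5 of 19 and 2 of 8 TRAV15 chains and for 1 of 40 and 0 of 10 TRAV21 chains.

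With the delta-J chains left out, none of the 12 families that still passed the 1% minimum was called (0%). TRAV15 and TRAV21 were then themselves below the minimum. TRAV15 stood at 0.539% in the thymus and 0.462% in the spleen of mouse-155A and at 0.425% and 0.485% in mouse-155C, giving ratios of 0.858 and 1.14. TRAV21 stood at 0.898% and 1.29% in mouse-155A and at 0.850% and 0.808% in mouse-155C, with ratios of 1.43 and 0.951. These shares rest on 4 to 39 chains each, and the intervals of thymus and spleen overlapped in both animals.

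**Figure D2:**
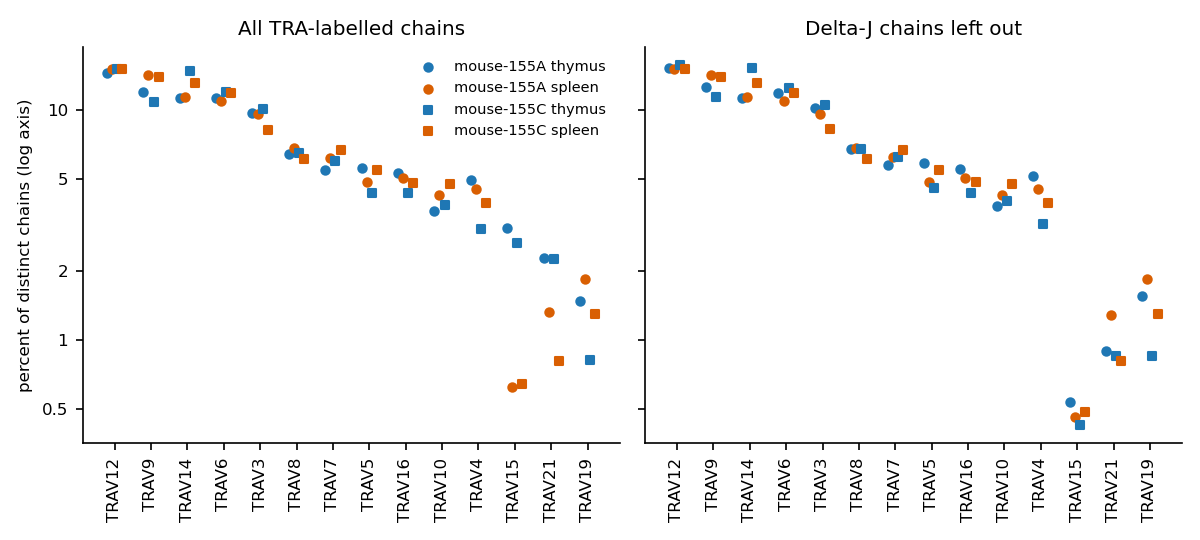
Percent of distinct TRA-labelled chains (log axis) that used each TRAV family in the thymus (blue) and spleen (orange) of mouse-155A (circles) and mouse-155C (squares), with all chains on the left and without delta-J chains on the right. On the left the thymus points of TRAV15 (3.08% and 2.65%) and TRAV21 (2.28% and 2.24%) sit above the spleen points, and on the right thymus and spleen points of TRAV15 lie between 0.425% and 0.539%.

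The most used TRAV families were close between the organs. TRAV12 made up 14.5% and 15.1% of chains in the thymus and spleen of mouse-155A and 15.1% in both organs of mouse-155C. TRAV14 made up 11.3% and 11.5% in mouse-155A and 14.9% and 13.2% in mouse-155C, so the thymuses of the animals differed more than the organs of either animal. TRAV9 was higher in both spleens, at 12% in the thymus and 14.3% in the spleen of mouse-155A and at 10.9% and 14% in mouse-155C, with ratios of 1.18 and 1.28. Its intervals overlapped between the organs in both animals.

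As a second description, the families whose shares in both spleens lay beyond the range of all 7 thymus tables were counted, which are named here after their values were seen. There were 6 of 14 (42.9%), comprising TRAV15 and TRAV21 below the range and TRAV7, TRAV9, TRAV10 and TRAV12 above it. TRAV10 had shares of 3.65% and 4.28% in mouse-155A and 3.87% and 4.76% in mouse-155C. Without delta-J chains 1 of 12 remained (8.33%), namely TRAV10, at 3.83% and 4.29% in mouse-155A and 4.04% and 4.77% in mouse-155C against a thymus range of 3.66% to 4.25%. Of the other 3 families above the range, TRAV12 then lay inside it in both spleens, while TRAV7 still exceeded it in the spleen of mouse-155C (6.71% against 6.38%) and TRAV9 in that of mouse-155A (14.3% against 14%).

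TRAJ segments gave the same picture at the gene that had been assigned to the delta-J chains. None of 37 TRAJ genes was past 1.5-fold in both animals (0%). TRAJ22, the most used, made up 9.93% (8.57 to 11.4) of thymic and 6.78% (5.91 to 7.73) of splenic chains in mouse-155A and 9.37% (7.62 to 11.4) and 6.86% (5.52 to 8.41) in mouse-155C. The ratios were 0.683 and 0.732, the intervals were apart in mouse-155A but overlapped in mouse-155C, and both spleens lay below the thymus range of 8.04% to 9.93%. Of these TRAJ22 chains, 70 of 174 and 36 of 92 in the thymus carried Trdj1 or Trdj2, against 6 of 206 and 2 of 85 in the spleen. Without them TRAJ22 stood at 6.22% and 6.60% in mouse-155A and at 5.95% and 6.71% in mouse-155C, and the ratios became 1.06 and 1.13. Both spleens then lay above the thymus range, which was 5.61% to 6.30% without delta-J chains.

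The next most used TRAJ genes differed little between the organs. TRAJ30 made up 5.42% and 5.66% in mouse-155A and 4.89% and 5.41% in mouse-155C, and TRAJ26 made up 4.05% in both organs of mouse-155A and 4.99% and 5.41% in mouse-155C. Of the 37 genes, 2 lay beyond the thymus range in both spleens (5.41%), TRAJ22 below it and TRAJ21 above it, the latter with spleen shares of 3.33% and 3.39% against a thymus maximum of 3.25%. Without delta-J chains 2 of 37 again lay beyond it (5.41%), but these were TRAJ22 above it and TRAJ4 below it. TRAJ4 had spleen shares of 1.68% and 1.70%, the second under the thymus minimum by less than the digits shown. TRAJ21 was then inside the range. Leaving out the delta-J chains called 1 of 37 (2.7%), TRAJ18, the J segment of the invariant chain, here in cells without TRAV11. It made up 2.03% (1.41 to 2.83) and 1.32% (0.944 to 1.79) in mouse-155A and 1.59% (0.895 to 2.62) and 1.05% (0.561 to 1.79) in mouse-155C, with ratios of 0.649 and 0.659 and overlapping intervals. These shares rest on 34, 40, 15 and 13 chains, and the ratios had been 0.678 and 0.644 with all chains. The TRAJ18 share of the mouse-155A spleen lay inside the thymus range of 1.29% to 2.03%.

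The alpha locus rearranges from its inner ends outwards in successive rounds, so the position of the segments used was compared as well. TRAJ genes of the upstream part, numbered 42 and higher, made up 22.6% and 24.6% of chains in mouse-155A and 20.8% and 22% in mouse-155C. Those of the downstream part, numbered 21 and lower, made up 27.3% and 28.3% in mouse-155A and 28.2% and 29.8% in mouse-155C. All spleen values lay within the range of the 7 thymus tables, which was 20.8% to 25.4% upstream and 27% to 30.3% downstream.

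By the 1.5-fold rule, beta chain V use differed less between the organs than TRAV use over all TRA-labelled chains. It did not differ less than TRAV use without delta-J chains, where no family was called either. None of 19 TRBV genes was past 1.5-fold in both animals (0%), and none of 12 TRBJ genes (0%). With at least 2 transcripts required of each chain, TRBV5 and TRBV20 were past it, and the ratios of TRBV5 were 0.318 and 0.294. The 3 most used were TRBV13-2 (chr6:41098330-41098766), TRBV12-1 (chr6:41090484-41091001) and TRBV13-1 (chr6:41092941-41093402). TRBV13-2 made up 9.04% (7.79 to 10.4) in the thymus and 10.7% (9.69 to 11.8) in the spleen of mouse-155A and 10.7% (8.92 to 12.7) and 12.3% (10.5 to 14.2) in mouse-155C. With the invariant NKT-like cells kept in, the ratios of TRBV13-2 turned from 1.19 and 1.15 to 0.886 and 0.918. TRBV12-1 made up 9.31% and 8.53% in mouse-155A and 7.67% and 7.90% in mouse-155C, and TRBV13-1 made up 7.67% in both organs of mouse-155A and 7.95% and 7.83% in mouse-155C. Each of these ratios was between 0.916 and 1.19, and the intervals of the organs overlapped.

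The shares of 5 of the 19 TRBV genes in both spleens lay beyond the range of the 7 thymus tables (26.3%), and these genes are named here after their values were seen. TRBV13-2 and TRBV12-2, neighbours in the beta locus, were above the range. TRBV12-2 (chr6:41095785-41096298) made up 4.87% and 6.44% in mouse-155A and 4.29% and 6.14% in mouse-155C, with ratios of 1.32 and 1.43. TRBV19, TRBV5 and TRBV2 were below the range, of which TRBV19 (chr6:41155309-41155982) made up 4.71% and 3.44% in mouse-155A and 4.84% and 2.76% in mouse-155C. TRBV5 (chr6:41039266-41039737) made up 3.86% and 2.61%, then 4.11% and 2.76%, with ratios of 0.675 and 0.672. TRBV2 (chr6:41024274-41024929) made up 3.01% and 2.58%, then 4.29% and 2.76%. For each of the 5 genes the intervals of thymus and spleen overlapped in both animals.

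**Figure D3:**
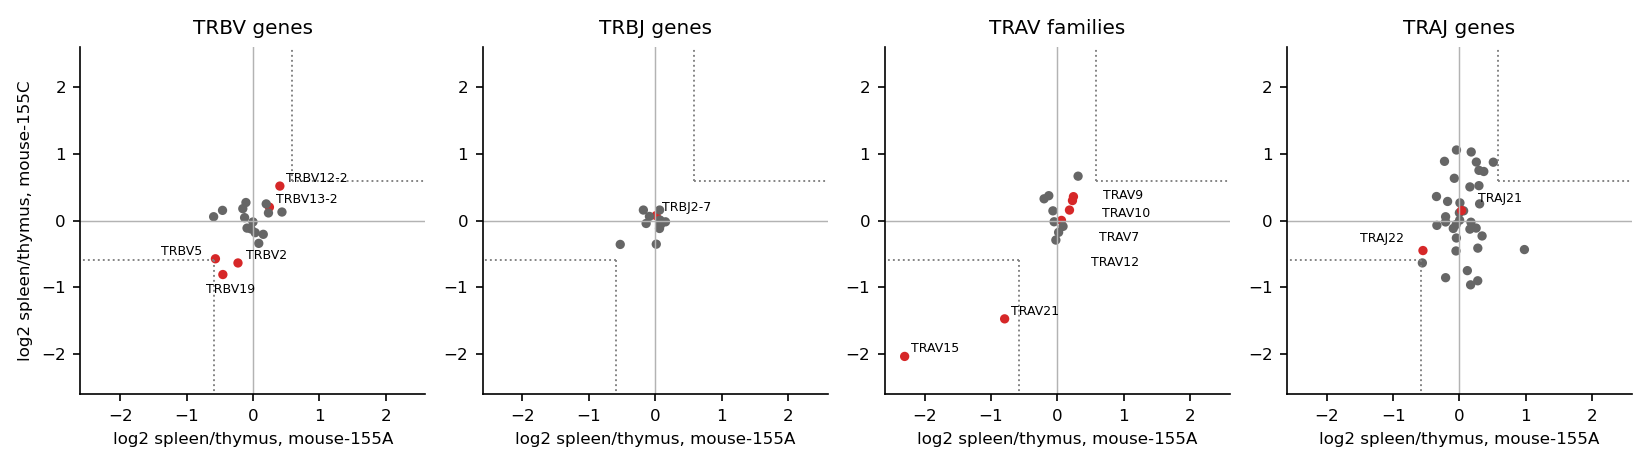
Log2 ratio of the spleen share to the thymus share in mouse-155A (horizontal axis) and mouse-155C (vertical axis), 1 point per gene or family, for TRBV, TRBJ, TRAV and TRAJ. Dotted corners mark ratios past 1.5-fold the same way in both animals, and red, named points are genes whose shares in both spleens lay beyond the range of the 7 thymus tables. TRAV15 (-2.30 and -2.04) and TRAV21 (-0.79 and -1.47) are the points inside a corner, and TRBV5 (-0.57 and -0.57) lies just outside.

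Ratios in the 2 animals moved together for TRAV and less for the other segments. Across the 14 TRAV families the log2 ratios of mouse-155A and mouse-155C had a Pearson correlation of 0.900 (Spearman 0.508), which was 0.298 (Spearman 0.154) over the 12 families left without delta-J chains. The Pearson values were 0.507 over 19 TRBV genes (Spearman 0.386), 0.395 over 12 TRBJ genes (Spearman 0.00701) and 0.123 over 37 TRAJ genes (Spearman 0.147). These are descriptions across genes, which share the libraries of an animal and whose shares add up to a whole, and genes are not replicates.

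The most used TRBJ genes were close between the organs. TRBJ2-7, the most used, made up 19.0% and 19.2% in mouse-155A and 18.4% and 19.4% in mouse-155C. TRBJ1-1 made up 12.6% and 11.5%, then 12.4% and 12%, and TRBJ2-1 made up 11.4% and 12.7%, then 12.1% and 11.9%. TRBJ1-5, named after its values were seen, was lower in both spleens, at 3.49% and 2.42% in mouse-155A and 2.56% and 2.00% in mouse-155C, with ratios of 0.694 and 0.780 and overlapping intervals. TRBJ2-7 was the 1 gene of 12 with both spleens beyond the thymus range (8.33%), whose highest value was the 19.0% of mouse-155A. Summed over the second J cluster, TRBJ2 genes made up 63.2% (61.0 to 65.4) and 65.2% (63.5 to 66.8) in mouse-155A and 62.6% (59.6 to 65.4) and 64.4% (61.7 to 67.0) in mouse-155C. Both spleens were above the thymus range of 61.3% to 63.4%, by less than the width of the intervals.

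The Jensen-Shannon distance of the usage profiles set these differences beside those between tables of different animals. It was computed after thinning each table to 1095 distinct TRB or 982 distinct TRA chains (941 without delta-J chains). Counting error alone gives a distance above 0 at this depth, and its part in the values was not tested. A larger value means less similar profiles. For TRAV families the distance between thymus and spleen of the same animal was 0.118 in mouse-155A and 0.112 in mouse-155C, above all 21 distances between thymus tables (0.0758 to 0.0955). Its intervals over the draws were 0.0953 to 0.143 and 0.0999 to 0.126, so that of mouse-155A just reached into that range. Without delta-J chains the distance was 0.0826 and 0.0740, against 0.0770 to 0.10 between thymus tables. For TRBV genes it was 0.0986 and 0.0985, just above the range of 0.0723 to 0.0981 between thymus tables, with 0.0891 between the spleens. The intervals over the draws were 0.0774 to 0.120 and 0.0889 to 0.108, so both reached into that range. TRBJ distances (0.0585 and 0.0356) did not exceed those between thymus tables (0.0384 to 0.0632), and of the TRAJ distances 0.127 lay inside and 0.148 above the range of 0.120 to 0.140.

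The length of the TRA CDR3 differed at its upper end. The mean was 13.8 residues in both thymuses and 13.6 in both spleens, counted with the anchor residues at either end, and the spread was wider in the thymus (SD over chains 1.92 and 1.84) than in the spleen (1.47 and 1.47). Chains of at least 18 residues, a limit chosen after the lengths were seen, were 63 of 1752 in the mouse-155A thymus (3.6%, 2.77 to 4.58) and 18 of 3038 in its spleen (0.592%, 0.352 to 0.935). In mouse-155C they were 27 of 982 (2.75%, 1.82 to 3.98) and 7 of 1239 (0.565%, 0.227 to 1.16). Long TRA chains were thus more common in both thymuses, with no overlap of the intervals.

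Delta-J chains accounted for 52 of the 63 long chains of the mouse-155A thymus, 5 of the 18 of its spleen, 21 of the 27 of the mouse-155C thymus and 1 of the 7 of its spleen. Their mean length was 18.5, 19.0, 17.7 and 16 residues in the same order, and the bases assigned to neither the named V nor the named J gene averaged 28.0, 27.9, 27.2 and 21, a number that includes delta D and J bases. Once they were left out, chains of at least 18 residues made up 0.658% and 0.429% in mouse-155A and 0.638% and 0.485% in mouse-155C. Unassigned bases then averaged 2.81 and 2.74 in mouse-155A and 2.75 and 2.77 in mouse-155C, where with all chains they had averaged 3.98 and 2.80, and 3.80 and 2.80.

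**Figure D4:**
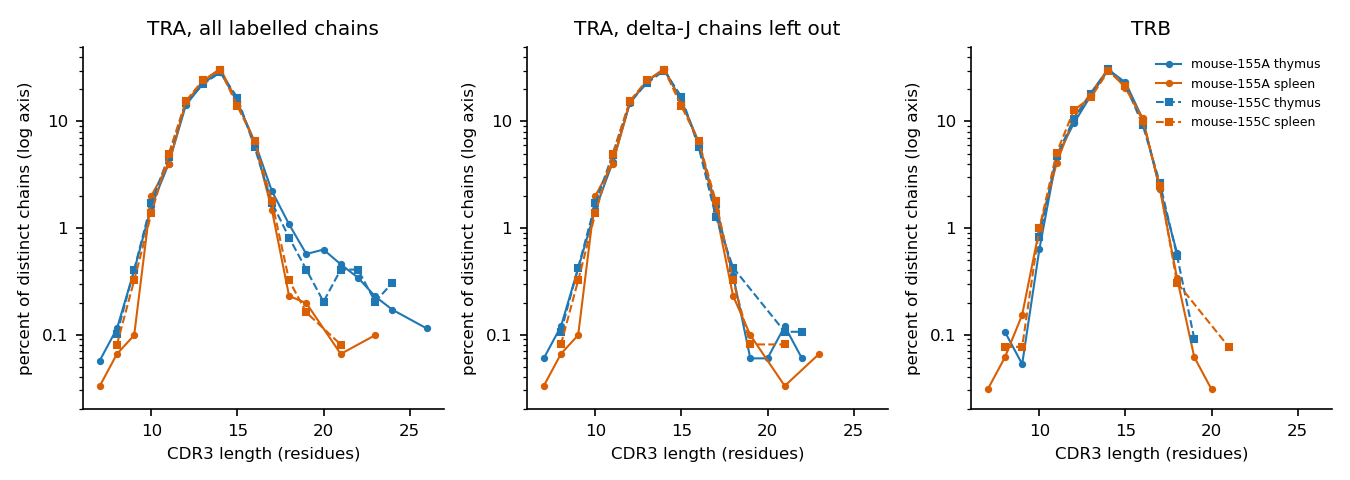
Percent of distinct chains (log axis) at each CDR3 length in residues for the thymus (blue) and spleen (orange) of mouse-155A (solid lines, circles) and mouse-155C (dashed lines, squares), for all TRA-labelled chains, TRA without delta-J chains, and TRB. The thymus curves of all TRA-labelled chains have a tail at 18 residues and above, holding 3.6% and 2.75% of chains, that falls to 0.658% and 0.638% in the middle panel, and the TRB curves lie close together.

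Beta chains were alike in length. The mean TRB CDR3 was 14 residues in the mouse-155A thymus and 13.9 in the other 3 tables, and chains of 13 residues or fewer made up 32.6% (30.5 to 34.8) and 34.8% (33.1 to 36.4) in mouse-155A and 34.2% (31.4 to 37.1) and 35.8% (33.2 to 38.5) in mouse-155C. Chains of at least 17 residues made up 2.91% and 2.76%, then 3.29% and 2.84%. TRB bases assigned to no gene averaged 4.28 in the thymus and 4.11 in the spleen of mouse-155A and 4.24 and 4.10 in mouse-155C. These means were slightly higher in the thymus, and the spleen shares of short and long TRB chains lay within the range of the thymus tables.

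The middle of the CDR3, without its first 4 and last 4 residues, was compared by residue class. In TRA chains, 5 of 8 classes lay beyond the thymus range in both spleens (62.5%), and without delta-J chains 3 of 8 did (37.5%). Acidic residues (aspartate and glutamate) made up 10.1% of central TRA residues in the thymus and 8.43% in the spleen of mouse-155A and 10.2% and 8.22% in mouse-155C. Without delta-J chains these were 8.85% and 8.36%, then 9.14% and 8.18%, against a thymus range of 8.49% to 9.38%. Basic residues (lysine and arginine) without delta-J chains made up 2.65% and 2.12%, then 2.38% and 2.03%, against 2.31% to 2.65%. Charged residues were thus less frequent in splenic TRA chains with or without the delta-J chains, by under 1 percentage point for each class once they were left out. At the commonest length of 14 residues, again without delta-J chains, acidic residues stood at 9.92% and 9.19%, then 9.60% and 8.77%, and the spleen of mouse-155A was inside the thymus range of 9.14% to 10.6%. The third class, aromatic residues (phenylalanine, tryptophan, tyrosine and histidine), stood at 11.2% and 11.3%, then 10.6% and 11.3%.

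In TRB chains 2 of 8 classes lay beyond the thymus range in both spleens (25%). Small polar residues (serine, threonine, asparagine and glutamine) made up 28.7% and 27.9% in mouse-155A and 29% and 27.4% in mouse-155C, against 28.7% to 29.7% in the thymus tables. At the commonest length of 14 residues the values were 29.9% and 28.4%, then 30.8% and 27.4%. The other class was aromatic residues, histidine included, at 8.18% and 8.34%, then 7.27% and 8.18%, so that the spleen of mouse-155C exceeded the thymus of mouse-155A by less than the digits shown. Of the residues in this class, only histidine was itself beyond the thymus range in both spleens. Histidine made up 0.661% and 0.771%, then 0.630% and 0.808%, against 0.551% to 0.737%.

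Hydrophobic residues at positions 6 and 7 of the TRB CDR3, counted from the first cysteine, have been linked to self-reactivity and are therefore of interest between organs. Chains with one at both positions made up 0.846% (0.484 to 1.37) and 1.20% (0.852 to 1.63) in mouse-155A and 0.822% (0.377 to 1.55) and 0.844% (0.422 to 1.51) in mouse-155C. Chains with one at either position, a measure added after these values were seen, made up 24.2% (22.3 to 26.2) and 25.2% (23.7 to 26.7) in mouse-155A and 21.2% (18.8 to 23.7) and 25.4% (23.1 to 27.9) in mouse-155C. Both spleens lay above the thymus range of 21.2% to 24.2% on this measure. A central cysteine occurred in 0.159% and 0.184% of TRB chains in mouse-155A and in 0.183% and 0.307% in mouse-155C, and in 0.856% and 0.560%, then 1.02% and 0.726%, of TRA chains. The intervals of thymus and spleen overlapped in both animals for both hydrophobic measures and for the cysteines.

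Cells with TRAV11 or its copy TRAV11D joined to TRAJ18, called invariant NKT-like here, carry the receptor of invariant natural killer T cells, which recognise lipids on CD1d. Such cells mature in the thymus and mostly pair the chain with TRBV13-2, TRBV29 or TRBV1. Their most frequent junction over the 4 tables is printed with capitals for the run equal to Traj18 (chr14:54438234-54438299).
invariant NKT-like junction: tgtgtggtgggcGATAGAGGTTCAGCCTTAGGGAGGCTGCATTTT

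They made up 182 of 2085 counted cells in the mouse-155A thymus (8.73%, 7.55 to 10.02) and 7 of 3323 in its spleen (0.211%, 0.0847 to 0.434). In mouse-155C they made up 113 of 1241 in the thymus (9.11%, 7.56 to 10.8) and 11 of 1382 in the spleen (0.796%, 0.398 to 1.42). The thymus shares lay above the spleen shares in both animals without overlap of the intervals, and the 5 other thymus tables ran from 5.90% to 10.9%.

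**Figure D5:**
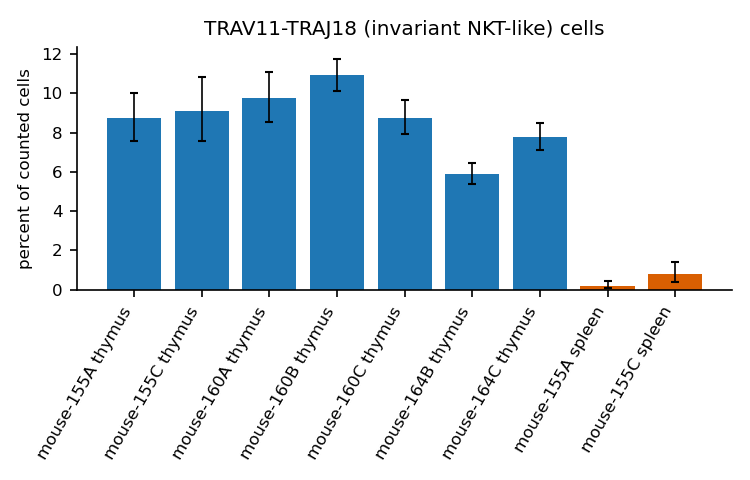
Percent of counted cells with a TRAV11-TRAJ18 chain in the 7 thymus tables (blue) and both spleen tables (orange), with exact 95% intervals as lines. The thymus tables lie between 5.90% and 10.9% and the spleen tables at 0.211% and 0.796%.

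The printed junction was found in 85, 3, 43 and 3 of these cells in the table order used above, and the most frequent amino acid CDR3, which several junctions encode, in 171, 6, 103 and 10. Their beta chains, by contrast, were nearly all different, with 178, 7, 112 and 11 distinct TRB chains. TRBV13-2 was used by 84 of 182 cells in the mouse-155A thymus (46.2%, 38.8 to 53.7), 4 of 7 in its spleen, 49 of 113 in the mouse-155C thymus (43.4%, 34.1 to 53.0) and 5 of 11 in its spleen. The 3 beta genes named above together accounted for 73.6%, 71.4%, 72.6% and 45.5% of invariant NKT-like cells and for 21%, 24%, 21.9% and 24.7% of the other counted cells. In the thymus, TRBV29 was used by 25 and 21 cells, TRBV1 by 25 and 12, TRBV13-1 by 23 and 11 and TRBV13-3 by 11 and 7. Of the 11 cells in the mouse-155C spleen, the 6 without TRBV13-2 included 5 with TRBV13-1, and none used TRBV29 or TRBV1 (0 of 11, exact upper limit 28.5%).

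Finally, chains with identical junction nucleotides were counted between the organs of an animal, and between animals for comparison. For TRB, 14 were common to both organs of mouse-155A, which is 0.740% of thymic and 0.427% of splenic distinct chains, and 20 were common in mouse-155C, 1.83% and 1.53%. Any table of one animal shared 4 to 11 with a table of the other. For TRA, 84 were common in mouse-155A (4.75% and 2.69%) and 43 in mouse-155C (4.34% and 3.43%), while tables of different animals shared 37 to 55. These numbers depend on table size, with 3120 and 1253 TRA chains in the spleens. The mouse-155C thymus shared 4.94% of its TRA chains with the spleen of mouse-155A, and the mouse-155A thymus 2.55% with that of mouse-155C. Pairs of a TRA and a TRB chain common to both organs were 2 in mouse-155A and 14 in mouse-155C, against 0 to 2 between animals. Thymic TRA chains shared with the spleen of mouse-155A had a mean of 2.82 bases assigned to no gene against 4.13 in the unshared ones, and 3.84 against 3.92 in mouse-155C. None of the shared TRA chains carried a delta J, and with delta-J chains left out the unshared means were 2.92 and 2.87, so that the shared chains of mouse-155C then had more such bases than the unshared ones. In TRB the means were 3.36 against 4.28 and 3.70 against 4.25, lower in the shared chains of both animals, which were 14 and 20 in number.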

How the data were processed

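Receptor chains were amplified from CD8+ T cells with the Parse Evercode TCR kit, and the authors assembled and annotated them with the Parse Biosciences TCR pipeline (version not given in the sources used here). GRCm39 is the build in the submitters' processing notes. The 8 sequencing samples are pooled sublibraries, so animal and tissue were read from table names and no sample was assigned to a group. The deposited files give counts of reads and transcripts per chain and barcode, a multiplet mark that was used as the authors set it with no further doublet caller, the percent identity of each sequence to its V and J gene, and the count and fraction of cells per clonotype, the last of which were not used for results.

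From these, shares of distinct chains, ratios and exact intervals were computed with Python 3.11.15, pandas 2.3.3, numpy 2.4.6 and scipy 1.17.1. The fold limit was 1.5 and the minimum mean share 1%. Sequences and coordinates came from the reference for GRCm39 (GENCODE M39), and every TRAV chain had a position. Jensen-Shannon distances are means over 200 random draws. Sequence annotation was partial for the thymus tables of mouse-160B and mouse-164B, where delta-J values cover the annotated chains. The code that applies the fold rule was tested on simulated data.

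The named segments were those called in both animals and the 3 most used of each kind, plus 5 TRBV genes for the invariant NKT-like cells. The comparison, members and gene lists were chosen with earlier results of these data known. The number of cells per table limits precision: a count of 0 allows 0.0903% to 0.242% of counted cells (3 counts).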

Additional observations from a re-analysis of the deposited data

Results flagged for a closer look

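TRA-labelled sequences that carried a delta J lie outside the alpha and beta repertoires that the tables were made to list. Counted over all assembled TRA-labelled sequences, paired or not, they were 151 of 4887 in the mouse-155A thymus (3.09%), 40 of 7509 in its spleen (0.533%), 89 of 2925 in the mouse-155C thymus (3.04%) and 40 of 3487 in its spleen (1.15%). The 5 other thymus tables ran from 2.23% to 2.83%.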

How the results depend on the processing

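The called TRAV15 and TRAV21 kept their direction under every alternative but 1, chosen after seeing the data: without delta-J chains the spleen to thymus ratio of TRAV15 was 1.14 in mouse-155C and that of TRAV21 was 1.43 in mouse-155A. Of 335 values under alternatives other than leaving out a sublibrary, 302 stayed within their limits. When a share of 125% of the other organ's sufficed, the calls were 3 TRBV (TRBV12-2, TRBV19 and TRBV5), 1 TRBJ and 4 TRAJ genes, at 2-fold 1 TRAV family remained (TRAV15), and by gene name 1 TRAV gene was called (TRAV21-DV12). All non-multiplet barcodes with the chain, paired or not, gave 1 TRAV family (TRAV15, with TRAV21 at ratios of 0.552 and 0.772), 2 TRAJ genes, 1.51% of TRA chains of at least 18 residues in the mouse-155C spleen, and delta-J shares of 0.675% and 1.60% in the spleens of mouse-155A and mouse-155C. With a TRA chain alone required, invariant NKT-like shares were 7.24% and 6.54% in the thymuses. One TRAJ gene was called with no minimum share, with multi-chain barcodes left out, with invariant NKT-like cells kept, and, as alternatives chosen after seeing the data, without delta-J chains and without junctions lacking a final F or W. Leaving out delta-J chains gave 0 TRAV families and long TRA shares of 0.658% and 0.638%.

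At least 2 transcripts per chain gave 2 TRBV (TRBV5 and TRBV20) and 3 TRAJ genes, upstream TRAJ shares of 19.8% and 17.5% in the thymuses, 31.5% downstream in the mouse-155C thymus, 30.4% short TRB chains in the mouse-155A thymus, TRBJ2 shares of 68.3% and 67.4% in the spleens, 27.1% hydrophobic at position 6 or 7 in the mouse-155A spleen, invariant NKT-like shares of 7.17% in the thymus and 0% in the spleen of mouse-155A, and 0% delta-J chains in the mouse-155C spleen. Counted by cells, 47.5% of TRA chains in the mouse-155C thymus were short. The causes were not tested.

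Leaving out each of the 8 sublibraries gave 0 to 1 TRBV genes (TRBV5 without sublibrary 3 or 6, TRBV19 without 7), 0 TRBJ, 2 TRAV and 0 to 2 TRAJ genes (TRAJ13 without 1 or 5, TRAJ11 and TRAJ18 without 2, TRAJ18 without 8). Every ratio was taken within an animal, so the ratios were paired. Comparisons with the range of the 7 thymus tables and with distances between animals were not.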
